A study of Mus musculus with 8 samples.

Results

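The genes described here encode the aminoacyl-tRNA synthetases of the mouse, the enzymes that attach each amino acid to its tRNA. They were chosen by symbol alone, as 36 of the 50902 genes in the table of the series. Of these, 20 encode cytosolic enzymes, among them Gars and Kars, which also serve the mitochondrion, and 16 have symbols that end in 2 and encode mitochondrial enzymes. RNA-seq was performed on E14 mouse embryonic stem cells (ESCs) grown in N2B27 medium with LIF and 2i, the pair of kinase inhibitors that holds ESCs in the naive state. All cells were transfected with siRNA against *Baz2a* and collected 3 days later, and all carried a Flag- and HA-tagged BAZ2A transgene that resists this siRNA and was inserted by PiggyBac transposase. The 4 libraries of ESC + F/H-BAZ2Ar-WT (WT) expressed the wild-type protein and the 4 libraries of ESC + F/H-BAZ2Ar-ΔTAM (ΔTAM) a BAZ2A that lacks TAM, its RNA-binding domain. The transgenic lines were isolated as single-cell clones, so that a difference between the clones cannot be told apart from an effect of the deletion. No source used here says whether the 4 libraries of a line came from separate cultures, and the p-values measure only the spread between these libraries.

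Most amino acids have a synthetase of their own, which joins the amino acid to the matching tRNA in a reaction driven by ATP. Mitochondria translate their own mRNAs and use a set of synthetases that is mostly encoded by separate nuclear genes, whereas several cytosolic synthetases sit together in a multi-tRNA synthetase complex. When charged tRNAs run short, the kinase GCN2 senses the uncharged tRNA, phosphorylates eIF2α and raises translation of the transcription factor ATF4, which is known to activate genes of amino acid synthesis and many cytosolic synthetase genes.

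The libraries held between 6560881 and 8662855 reads on genes, as recovered from the deposited values by taking the unit of which a library's values are whole multiples as 1 read. If so, reads on genes made up 14.82% to 14.98% of the library totals that these units imply. The study's methods divide by the number of sequencing reads without saying which reads these are, so the recovered numbers are reads only under this reading. Reads on cytosolic synthetase genes ranged from 606 to 6841 per gene and library, and reads on mitochondrial ones from 60 to 1379. *Baz2a* was higher in ΔTAM, at 18.3 ± 0.824 RPKM (SD, n = 4) against 10.5 ± 0.529 RPKM (SD, n = 4) in WT. Reads of the endogenous gene and of the transgene cannot be separated in this table. By Western blot, which measures protein, the paper describes BAZ2A as similar in both lines. An effect of the difference in *Baz2a* mRNA cannot be told apart from one of the deletion. The ESC markers *Pou5f1*, *Nanog* and *Zfp42* did not pass the test, whereas *Sox2* (log2 fold change of -0.42), *Klf4* (-0.39) and *Esrrb* (-0.20) were lower in ΔTAM. The summed level of the 6 ESC markers was 80.5 to 83.3 RPKM in WT and 68.5 to 74.1 RPKM in ΔTAM, and its part in the results below was not tested. Markers of fibroblasts, which can serve as feeder cells, summed to at most 0.0332 RPKM in any library, with *Col3a1*, *Lum* and *Dcn* at 0 in all of them. The 6 primitive endoderm markers summed to at most 0.0583 RPKM. Of the markers of other states, *Dnmt3b* (primed cells) was higher in ΔTAM with a log2 fold change of 0.54. Of the same list, *Fgf5* was at 0 in all libraries and *Otx2* and *Pou3f1* were under the filter, with *Otx2*, at most 11 reads in a library, having a mean of 0.0101 RPKM in WT and 0.00196 RPKM in ΔTAM. *Nes* (neuroectoderm) was lower at -0.75, while *Tubb3* of the same list was not called (0.18, limma adjusted p = 0.0969). Of the trophectoderm markers *Eomes* was lower at -0.26 and *Tfap2c* higher at 0.19, and *Cdx2* was not called (0.28, limma adjusted p = 0.13) but was higher with voom (0.39, adjusted p = 0.0321). The 5 trophectoderm markers summed to 1.33 to 1.37 RPKM in WT and, without overlap, 1.37 to 1.68 RPKM in ΔTAM, and the part of these markers in the results was not tested. *Sox1* (neuroectoderm), under the filter on RPKM, was lower with voom (-0.95, adjusted p = 0.00298).

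To determine whether the mRNA levels of the synthetases differed between the lines, each gene was tested with limma on log2(RPKM + 0.1). RPKM are reads per kilobase per 1000000 reads, here per kilobase of the gene from start to end with introns. Genes that averaged 0.1 RPKM or more over the libraries were tested, and an adjusted p (Benjamini-Hochberg over all 9000 genes tested) under 0.05 was called. Most cytosolic synthetases were lower in ΔTAM. Of the 20, all of which passed the filter, 16 were called lower, 1 (*Farsa*) was called higher, and 3 (*Hars*, *Kars* and *Rars*) were not called. Among all genes tested, 15.9% were called lower and 19.9% higher. The median log2 fold change (ΔTAM minus WT) of the cytosolic synthetases was -0.28, against 0.01 for all genes tested. In the same 16 genes every ΔTAM library lay below every WT library, which was the case for 16.7% of all genes tested, and in *Farsa* every ΔTAM library lay above every WT library, as in 20.5% of all genes. The study's thresholds were a change of 0.58 or more on the log2 scale and a p under 0.05, without saying whether p was adjusted. Read here as an unadjusted p in the present fit, they were met by 341 genes, 3.79% of all genes tested, and among the synthetases by *Nars*. The study reports far more genes at its thresholds, so this share is not that of its own test. The pseudocount used here also reduces fold changes of low genes.

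**Figure D1:**
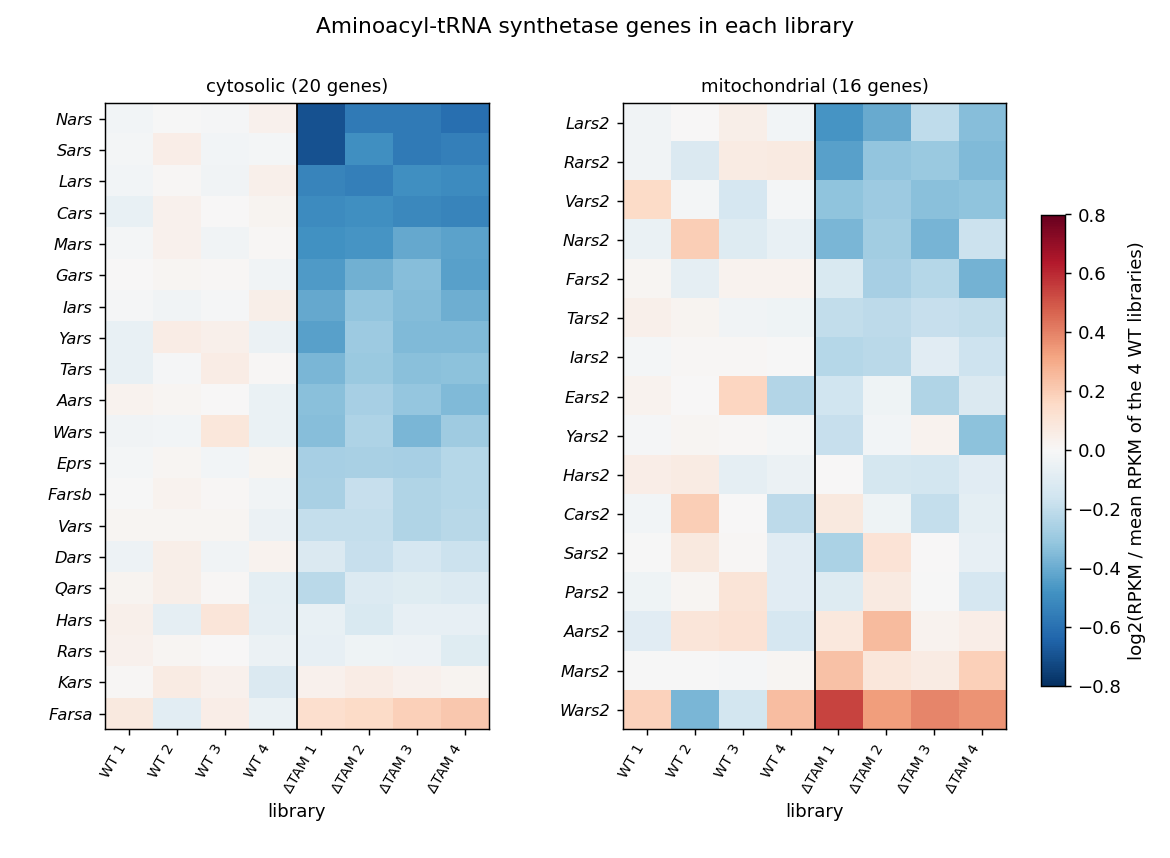
Each cell shows the log2 ratio of a gene's RPKM in 1 library to its mean RPKM in the 4 WT libraries, without a pseudocount, for the 20 cytosolic genes (left) and the 16 mitochondrial genes (right), ordered by their mean in ΔTAM. In the cytosolic panel most rows turn blue in all 4 ΔTAM libraries, and the mitochondrial rows, with mostly lower and 3 higher means in ΔTAM, vary more among libraries of 1 line.

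The share of all reads on genes that fell on the cytosolic synthetases was 0.828% to 0.841% in the WT libraries and 0.650% to 0.669% in the ΔTAM libraries. On the mitochondrial synthetases it was 0.0773% to 0.0797% in WT and 0.0704% to 0.0721% in ΔTAM. Both shares were lower in every ΔTAM library. Taking each library by itself, the median cytosolic gene deviated from the WT mean by -0.31, -0.25, -0.30 and -0.28 on the log2 scale in ΔTAM replicates 1 to 4, while the median of all genes tested lay between 0.0073 and 0.017 in these libraries.

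The largest decrease was that of *Nars*, which encodes the asparaginyl-tRNA synthetase (mm10, chr18:64499665-64516557, minus strand). *Nars* measured 6.88, 6.98, 6.94 and 7.17 RPKM in WT replicates 1 to 4 and 4.32, 4.72, 4.71 and 4.60 RPKM in ΔTAM replicates 1 to 4. All ΔTAM libraries were well below all WT libraries, and the mean fell by 34.4%. The log2 fold change was -0.60 (SE 0.033, limma adjusted p = 3.02e-05). *Sars*, the seryl-tRNA synthetase gene (chr3:108424865-108445209, minus strand), had 3.19, 3.34, 3.17 and 3.18 RPKM in WT and 1.99, 2.29, 2.18 and 2.20 RPKM in ΔTAM. Its mean fell by 32.8% with no overlap between the lines, and its log2 fold change was -0.55 (SE 0.043, limma adjusted p = 1.04e-04). *Lars*, which encodes the leucyl-tRNA synthetase of the multi-tRNA synthetase complex (chr18:42202350-42262122, minus strand), had 1.42, 1.45, 1.41 and 1.48 RPKM in WT against 1.0, 0.986, 1.03 and 1.02 RPKM in ΔTAM. Here the replicates of each line were close together, and the mean fell by 30.1%, for a log2 fold change of -0.48 (SE 0.025, limma adjusted p = 2.41e-05).

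*Cars*, the cysteinyl-tRNA synthetase gene (chr7:143557230-143600090, minus strand), measured 1.16, 1.24, 1.21 and 1.23 RPKM in WT and 0.854, 0.861, 0.847 and 0.840 RPKM in ΔTAM. Its log2 fold change was -0.46 (SE 0.026, limma adjusted p = 3.11e-05), and the ΔTAM values spanned a narrower range than the WT values. *Mars*, which encodes the methionyl-tRNA synthetase that also charges the initiator tRNA (chr10:127296221-127311786, minus strand), had 4.06, 4.19, 4.03 and 4.13 RPKM in WT and 2.94, 2.96, 3.08 and 3.05 RPKM in ΔTAM. The groups did not overlap, and the log2 fold change was -0.44 (SE 0.025, limma adjusted p = 3.39e-05). The annotated exons of *Mars* share 68 bases, 1.99% of its exon bases, with *Ddit3* on the opposite strand. *Gars*, which encodes the glycyl-tRNA synthetase of both cytosol and mitochondrion (chr6:55038007-55079500, plus strand), had 2.47, 2.48, 2.48 and 2.41 RPKM in WT and 1.80, 1.89, 1.94 and 1.82 RPKM in ΔTAM. Every ΔTAM library was below every WT library, for a log2 fold change of -0.39 (SE 0.029, limma adjusted p = 9.24e-05).

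*Iars*, the isoleucyl-tRNA synthetase gene (chr13:49682100-49734267, plus strand), had 1.94, 1.91, 1.93 and 2.01 RPKM in WT and 1.46, 1.57, 1.53 and 1.48 RPKM in ΔTAM, with a log2 fold change of -0.34 (SE 0.030, limma adjusted p = 1.48e-04). *Yars*, which encodes the tyrosyl-tRNA synthetase (chr4:129189760-129219607, plus strand), had 1.49, 1.61, 1.59 and 1.50 RPKM in WT and 1.15, 1.26, 1.21 and 1.21 RPKM in ΔTAM, with a log2 fold change of -0.33 (SE 0.039, limma adjusted p = 6.13e-04). In both genes the lines were clearly apart. *Tars*, the threonyl-tRNA synthetase gene (chr15:11382301-11399665, minus strand), had 3.33, 3.45, 3.62 and 3.50 RPKM in WT and 2.69, 2.82, 2.76 and 2.76 RPKM in ΔTAM, with a log2 fold change of -0.32 (SE 0.030, limma adjusted p = 2.23e-04). *Aars*, which encodes the alanyl-tRNA synthetase (chr8:111033144-111057664, plus strand), had 5.46, 5.42, 5.38 and 5.17 RPKM in WT and 4.25, 4.46, 4.32 and 4.19 RPKM in ΔTAM, with a log2 fold change of -0.31 (SE 0.028, limma adjusted p = 1.96e-04). Again no ΔTAM library of these genes reached a WT library. *Aars* shares 14.3% of its exon bases with *Exosc6* on the same strand, a gene that is listed at 0 in all 8 libraries.

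The other 6 cytosolic genes called lower had smaller changes. *Wars* (tryptophan) had a log2 fold change of -0.26, *Eprs*, whose single protein charges both glutamate and proline tRNAs, -0.24, *Vars* (valine) -0.20, *Farsb* (a phenylalanine subunit) -0.18, *Dars* (aspartate) -0.13 and *Qars* (glutamine) -0.13. *Qars* was the weakest of these calls. With an adjusted p of 0.0279, it was lost when WT replicate 1, 2 or 3 or ΔTAM replicate 4 was left out, with adjusted p of 0.0525 to 0.0730 in those fits, and also when no filter was applied (adjusted p = 0.0517). The other 15 genes stayed called in all 8 fits that left out 1 library.

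**Figure D2:**
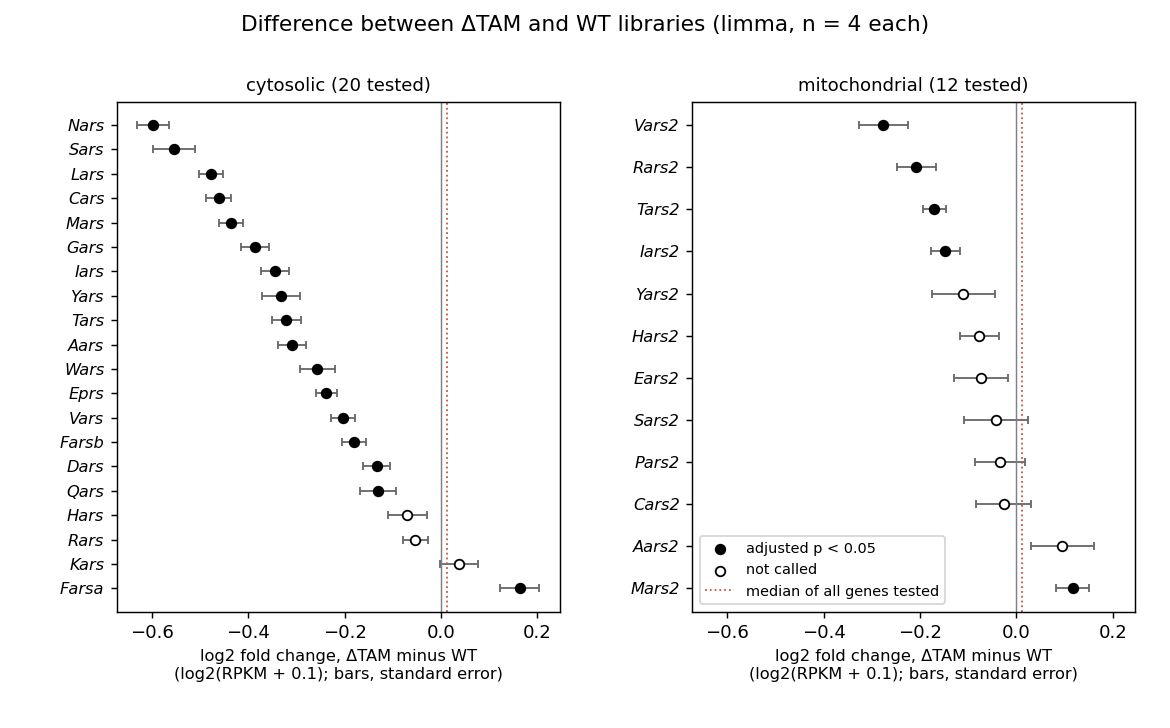
Points give the log2 fold change on log2(RPKM + 0.1), ΔTAM minus WT, of the 20 cytosolic (left) and 12 mitochondrial (right) genes tested, with the standard error as a bar, filled where the adjusted p is under 0.05, and the dotted line marks the median of all genes tested at 0.01. Cytosolic genes run from -0.60 (Nars) to 0.16 (Farsa), and mitochondrial genes from -0.28 (Vars2) to 0.12 (Mars2).

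The subunits of the cytosolic phenylalanyl-tRNA synthetase, which works as a tetramer with a pair of each, moved in opposite directions. *Farsa*, the gene of the catalytic α subunit (chr8:84856989-84869257, plus strand), had 1.43, 1.28, 1.41 and 1.31 RPKM in WT and 1.49, 1.51, 1.55 and 1.58 RPKM in ΔTAM, so that the lowest ΔTAM library was above the highest WT library. Its log2 fold change was 0.16 (SE 0.041, limma adjusted p = 0.0169). *Farsb*, the gene of the β subunit (chr1:78417975-78488897, minus strand), had 0.409, 0.418, 0.412 and 0.401 RPKM in WT and 0.342, 0.361, 0.346 and 0.350 RPKM in ΔTAM, with a log2 fold change of -0.18 (SE 0.024, limma adjusted p = 0.0011). Both calls held in every fit that left out 1 library. The exons of *Farsb* share 9.47% of their bases with *Sgpp2* on the opposite strand.

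The cytosolic genes that were not called had small differences with overlapping libraries. *Kars*, which encodes the lysyl-tRNA synthetase of both cytosol and mitochondrion (chr8:111993443-112011323, minus strand), had 3.10 ± 0.166 RPKM (SD, n = 4) in WT and 3.18 ± 0.0388 RPKM (SD, n = 4) in ΔTAM, with a log2 fold change of 0.037 (SE 0.039, limma adjusted p = 0.499). *Rars*, the arginyl-tRNA synthetase gene, had a log2 fold change of -0.05 (SE 0.026, limma adjusted p = 0.146), and *Hars*, the histidyl-tRNA synthetase gene, of -0.07 (SE 0.040, limma adjusted p = 0.216). These p-values do not show that the levels are equal. Quantile normalization alone brought *Rars* past the threshold (log2 fold change of -0.07, adjusted p = 0.0331), while over all other settings its adjusted p stayed above 0.05.

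**Figure D3:**
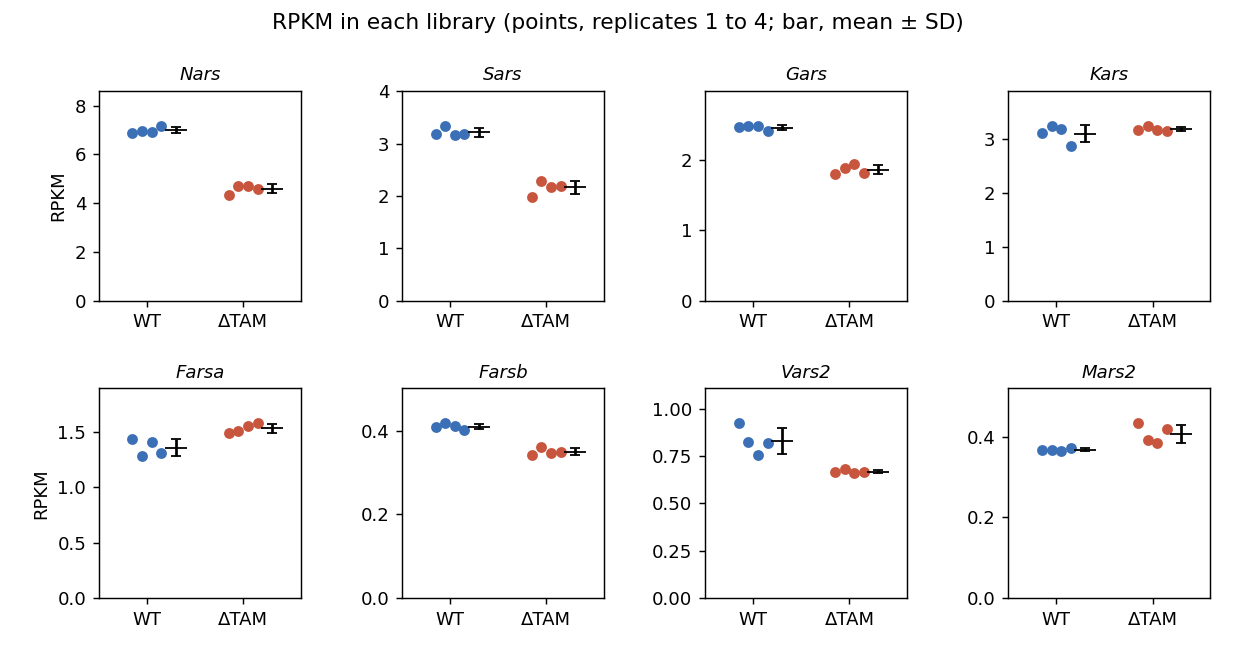
Points give the RPKM of 8 synthetase genes in WT replicates 1 to 4 (blue) and ΔTAM replicates 1 to 4 (red), with the mean ± SD beside them, on linear axes that start at 0. Nars, Sars, Gars, Farsb and Vars2 are lower in every ΔTAM library, Farsa and Mars2 are higher in every ΔTAM library, and the libraries of Kars overlap.

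Several synthetases are known from other work as ATF4 target genes. The list used here holds 12 of them: *Aars*, *Cars*, *Eprs*, *Gars*, *Iars*, *Lars*, *Mars*, *Nars*, *Sars*, *Tars*, *Wars* and *Yars*. All 12 were called lower in ΔTAM, against 15.9% of all genes tested, with log2 fold changes between -0.60 and -0.24 and a median of -0.37. The 8 cytosolic synthetases that are not on the list had a median of -0.10. Of these 8, 4 were called lower (*Dars*, *Farsb*, *Qars* and *Vars*), 1 higher (*Farsa*, against 19.9% of all genes tested) and 3 not called. The largest decrease among them, -0.20 in *Vars*, was smaller than the smallest decrease on the ATF4 list, -0.24 in *Eprs*. The list was drawn up with earlier results of these data known, and whether the 2 lists differ was not tested.

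The ATF4 response element is a composite site for C/EBP and ATF proteins with the core TGATGNAA, which was searched here on both strands (TTNCATCA on the reverse) in windows from 250 bases before to 50 bases after the RefSeq gene start (GRCm38.p6). Of the 36 synthetases, 27 had a window. The letters were present in 5 of the 8 ATF4-list genes with a window, in 0 of 5 other cytosolic genes and in 0 of 14 mitochondrial genes, against 3.97% of 32851 windows of the whole table. A match describes only the letters in this window, and no match says nothing about binding of the factor. The matches in *Gars*, *Tars*, *Iars* and *Yars*, all lower in ΔTAM, are shown to give the letters beside their bases, and those of the other gene are not reported here. They run 5′ to 3′ on the strand of the gene with the matching 8 bases in capitals and 11 bases on either side, and the matches in *Iars* and *Yars* lie just after the RefSeq start.
Gars, chr6:55037960-55037989, bases -30 to -23: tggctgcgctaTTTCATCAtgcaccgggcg
Tars, chr15:11399655-11399684, bases -15 to -8: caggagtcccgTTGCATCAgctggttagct
Iars, chr13:49682126-49682155, bases 8 to 15: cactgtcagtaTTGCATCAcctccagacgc
Yars, chr4:129189895-129189924, bases 4 to 11: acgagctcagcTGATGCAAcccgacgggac
The 250 bases upstream of the RefSeq start of *Gars* (chr6:55037751-55038000, plus strand), the most abundant synthetase mRNA per length, are given in full, with the same match in capitals.
Gars upstream: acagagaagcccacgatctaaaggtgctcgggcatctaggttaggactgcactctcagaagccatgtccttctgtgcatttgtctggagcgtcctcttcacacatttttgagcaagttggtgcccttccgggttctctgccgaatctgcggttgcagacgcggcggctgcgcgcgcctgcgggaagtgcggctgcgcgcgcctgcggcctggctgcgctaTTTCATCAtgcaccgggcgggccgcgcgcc

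Genes of the pathway from uncharged tRNA to ATF4 and of the response that follows ATF4 were read in the same way. Of the 15 genes listed, 13 were tested and 9 were called lower, against 15.9% of all genes tested. The 9 were *Atf4*, *Ddit3*, *Trib3*, *Chac1*, *Atf5*, *Sesn2*, *Ddit4*, *Nupr1* and *Asns*. The other 4, *Eif2ak4*, *Gcn1l1*, *Eif2s1* and *Ppp1r15a* (log2 fold change of 0.13), were not called. They include every listed gene that acts before *Atf4*, so the count does not describe the sensing of uncharged tRNA. *Atf4* itself (chr15:80255184-80257540, plus strand) had 28.4, 29.3, 30.8 and 27.6 RPKM in WT and 23.2, 26.1, 24.4 and 24.0 RPKM in ΔTAM, without overlap, and its log2 fold change was -0.25 (SE 0.046, limma adjusted p = 0.00431). ATF4 is regulated mainly in its translation, which mRNA levels do not report. *Chac1*, a glutathione-degrading enzyme and ATF4 target, had the largest decrease of the list, from 1.93, 2.01, 2.48 and 1.99 RPKM in WT to 0.744, 0.826, 0.821 and 0.874 RPKM in ΔTAM, a log2 fold change of -1.26 (SE 0.082, limma adjusted p = 5.16e-05). *Asns*, the asparagine synthetase that makes the amino acid charged by NARS, fell by 40.7%, with a log2 fold change of -0.74 (SE 0.028, limma adjusted p = 5.59e-06). *Ddit3*, which encodes the transcription factor CHOP, had a log2 fold change of -0.38 (SE 0.122, limma adjusted p = 0.043), a call that was lost in 7 of the 8 fits that left out 1 library, with adjusted p up to 0.0976. Without WT replicate 1 its log2 fold change was -0.30, and without ΔTAM replicate 4 it was -0.31. *Eif2ak4*, the gene of GCN2, had a log2 fold change of -0.06 and *Eif2s1*, the gene of eIF2α, of -0.015, and neither passed the test.

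**Figure D4:**
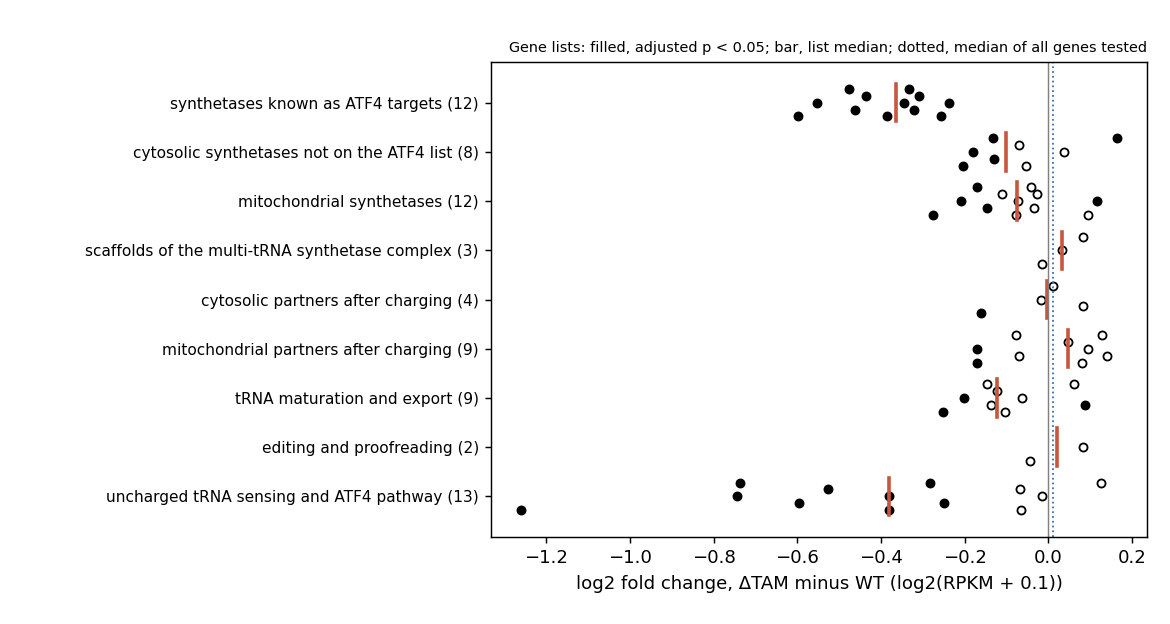
Each point is the log2 fold change on log2(RPKM + 0.1), ΔTAM minus WT, of a gene tested in the list named at the left (number tested in brackets), filled where the adjusted p is under 0.05, with the list's median as a vertical bar and the median of all genes tested as a dotted line. The 12 ATF4-list synthetases, with a median of -0.37, and the ATF4 pathway genes, with a median of -0.38, lie mostly to the left, and the other lists have medians between -0.12 and 0.046.

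In the multi-tRNA synthetase complex 8 of the members are synthetases, and 6 of them were called lower (*Dars*, *Eprs*, *Iars*, *Lars*, *Mars* and *Qars*), whereas *Kars* and *Rars* were not called, against 15.9% called lower and 19.9% higher among all genes tested. Their median log2 fold change was -0.19. Of the genes of its 3 scaffold proteins, *Aimp1* had a log2 fold change of -0.016, *Aimp2* of 0.033 and *Eef1e1* of 0.08. The number called among the 3 was 0 with limma, 0 at an unadjusted p under 0.05 and 0 with voom. By catalytic fold, 9 of the 10 cytosolic genes of class I were called lower, with a median of -0.29. *Eprs* was counted here, although its prolyl enzyme is of class II. Of the 10 of class II, 7 were called lower and 1 higher, with a median of -0.25.

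Most mitochondrial synthetases had negative fold changes, of which fewer were called. *Fars2*, *Lars2*, *Nars2* and *Wars2*, which had means under 0.1 RPKM, did not enter this test, and 12 of 16 were tested. Among these, 4 were called lower, 1 higher and 7 were not called, against the 15.9% and 19.9% of all genes tested. The fold change was negative in 10 of the 12 and positive in 2, as against 18 and 2 of the 20 cytosolic genes. The median log2 fold change was -0.07 over these 12 genes, and -0.13 over all 16 with voom on recovered reads, where that of the cytosolic genes was -0.31. A test of the difference between the cytosolic and the mitochondrial genes as groups was not made. Mitochondrial synthetase genes also had fewer reads, and the median coefficient of variation of RPKM among the WT libraries was 5.24% for them and 2.47% for the cytosolic genes.

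*Vars2*, which encodes the mitochondrial valyl-tRNA synthetase (chr17:35655634-35667592, minus strand), had 0.923, 0.825, 0.759 and 0.822 RPKM in WT and 0.666, 0.681, 0.660 and 0.665 RPKM in ΔTAM. All ΔTAM libraries were lower, for a log2 fold change of -0.28 (SE 0.050, limma adjusted p = 0.00431). *Rars2*, the mitochondrial arginyl-tRNA synthetase gene (chr4:34614957-34660167, plus strand), had 0.162, 0.152, 0.173 and 0.174 RPKM in WT and 0.122, 0.133, 0.134 and 0.129 RPKM in ΔTAM, with a log2 fold change of -0.21 (SE 0.040, limma adjusted p = 0.00578). On recovered reads, where no pseudocount damps a low level, its log2 fold change was -0.35. Its cytosolic counterpart *Rars* was not called.

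*Tars2*, which encodes the mitochondrial threonyl-tRNA synthetase (chr3:95739976-95760206, minus strand), had 0.707, 0.698, 0.676 and 0.672 RPKM in WT and 0.60, 0.595, 0.606 and 0.602 RPKM in ΔTAM, with a log2 fold change of -0.17 (SE 0.023, limma adjusted p = 0.00126). *Iars2*, the mitochondrial isoleucyl-tRNA synthetase gene (chr1:185284726-185329396, minus strand), had 0.588, 0.599, 0.60 and 0.595 RPKM in WT and 0.509, 0.513, 0.559 and 0.532 RPKM in ΔTAM, with a log2 fold change of -0.15 (SE 0.030, limma adjusted p = 0.00702). In both genes no ΔTAM library reached the WT range. *Iars2* shares 22.9% of its exon bases with *Rab3gap2* on the opposite strand, and *Rab3gap2* had a log2 fold change of -0.07 (adjusted p = 0.238). The kit kept the strand of the RNA, but whether the counting used it is not stated.

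*Mars2*, which encodes the mitochondrial methionyl-tRNA synthetase (chr1:55237177-55248470, plus strand), was the only mitochondrial gene called higher among the 12. It had 0.367, 0.366, 0.365 and 0.372 RPKM in WT and 0.433, 0.392, 0.385 and 0.419 RPKM in ΔTAM, with a log2 fold change of 0.12 (SE 0.034, limma adjusted p = 0.0327). Although every ΔTAM library was above every WT library, the call did not hold in 6 of the 8 fits that left out 1 library (each WT replicate, ΔTAM replicate 1 or ΔTAM replicate 4), with adjusted p between 0.0550 and 0.0846 in them. It was also lost on recovered reads (adjusted p = 0.105). The genes that were not called, *Aars2*, *Cars2*, *Ears2*, *Hars2*, *Pars2*, *Sars2* and *Yars2*, had log2 fold changes between -0.11 in *Yars2* and 0.10 in *Aars2*, and their lines overlapped.

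The 4 genes under the RPKM filter were measured on recovered reads with voom, which tested the 12657 genes that averaged 10 reads or more per library. *Fars2* spans a long locus (chr13:36117412-36726280, plus strand), and its 137 to 198 reads per library give low RPKM. *Lars2*, the mitochondrial leucyl-tRNA synthetase gene (chr9:123366927-123462666, plus strand), had 405 to 429 reads in the WT libraries and 271 to 386 in the ΔTAM libraries, and its log2 fold change was -0.35 (SE 0.063, adjusted p = 1.08e-04 with limma voom). *Nars2* (asparagine) had a log2 fold change of -0.29 (adjusted p = 0.0211) and *Fars2* (phenylalanine) of -0.25 (adjusted p = 0.0164). *Wars2*, the mitochondrial tryptophanyl-tRNA synthetase gene (chr3:99141068-99239186, plus strand), went the other way, with 60 to 92 reads in the WT libraries and 83 to 112 in the ΔTAM libraries and a log2 fold change of 0.42 (SE 0.131, voom adjusted p = 0.0118). On log2(RPKM + 0.1) without a filter, *Lars2* was called as well, whereas *Fars2* (adjusted p = 0.166), *Nars2* (adjusted p = 0.125) and *Wars2* (adjusted p = 0.111) were not. With these genes included, 7 of the 16 mitochondrial genes were called lower and 1 higher by voom, against 21.9% lower and 21.9% higher among all genes tested on reads. The cytosolic counts with voom were 16 lower and 1 higher of 20.

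Genes that charge the same amino acid in the cytosol and in the mitochondrion could be set side by side on the log2 scale of recovered reads. In 12 of 17 such pairs, with *Eprs* set against both *Ears2* and *Pars2* and both *Farsa* and *Farsb* against *Fars2*, the cytosolic gene had the more negative fold change. For tryptophan *Wars* had -0.31 and *Wars2* 0.42, for methionine *Mars* had -0.45 and *Mars2* 0.15, and for serine *Sars* had -0.57 and *Sars2* -0.048. The order was the other way for phenylalanine, where *Farsa* had 0.18, *Farsb* -0.23 and *Fars2* -0.25. It was also the other way for arginine, where *Rars* had -0.06 and *Rars2* -0.35, for valine, where *Vars* had -0.21 and *Vars2* -0.31, and for histidine, where *Hars* had -0.07 and *Hars2* -0.09. The differences within pairs were not tested. *Hars* and *Hars2* lie head to head on chromosome 18 and share 195 annotated exon bases on opposite strands.

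**Figure D5:**
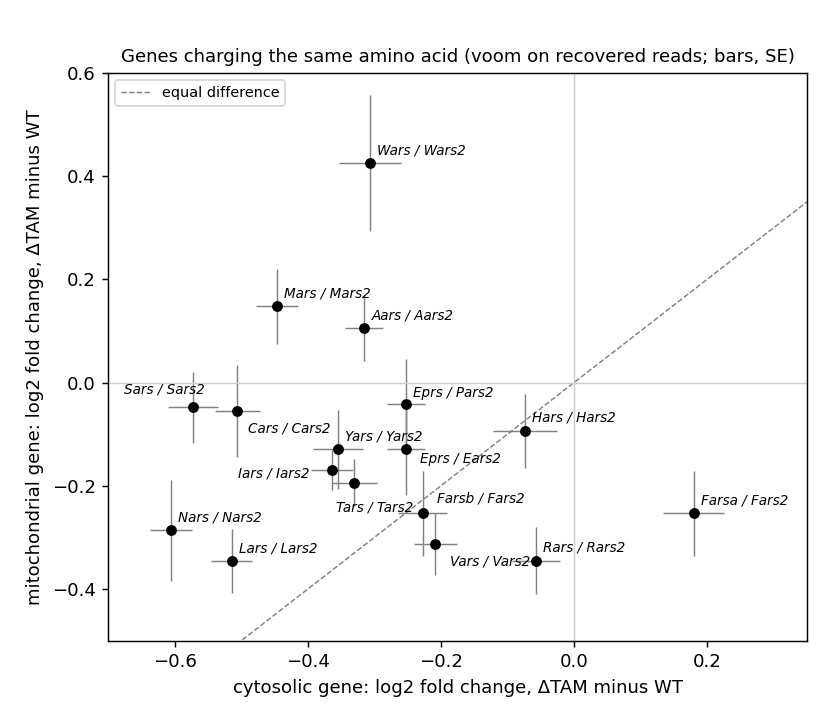
Each point sets the log2 fold change (ΔTAM minus WT, voom on recovered reads) of a cytosolic gene on the x axis against that of the mitochondrial gene for the same amino acid on the y axis, with standard errors as bars. Points above the dashed line have the more negative value in the cytosolic gene, as in Wars and Wars2 (-0.31 and 0.42), and Rars and Rars2 (-0.06 and -0.35) lie below it.

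Levels of different genes were compared as reads per kilobase of merged exon per 1000000 reads on genes, which takes the introns out of the length. In WT the cytosolic genes ranged from 24.7 for *Farsa* to 220.0 for *Gars*, with a median of 66.9, and the mitochondrial genes from 1.70 for *Wars2* to 20.1 for *Iars2*, with a median of 7.20. Every cytosolic gene was thus above every mitochondrial gene on this scale. After *Gars* came *Nars* at 182 ± 3.80, *Iars* at 130 ± 3.44, *Mars* at 125 ± 2.20 and *Lars* at 108 ± 2.55 (SD, n = 4). The ranges of mean ± SD of *Iars* and *Mars* overlapped, and those of the other neighbours among these 5 did not. In ΔTAM the corresponding levels were 166 for *Gars*, 119 for *Nars*, 100.3 for *Iars*, 91.6 for *Mars* and 75.2 for *Lars*. *Farsb* had 74.6 ± 1.0 (SD, n = 4) in WT, above *Farsa*. Merged exons count every annotated alternative exon, so that a gene with long rare exons has a lower value.

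Genes that act before or after the charging of tRNA were read from the same fit, in which 15.9% of all genes tested were called lower and 19.9% higher. Among the cytosolic partners, *Eef1a1*, which encodes the elongation factor that carries charged tRNA to the ribosome, was called lower with 167 ± 3.43 RPKM (SD, n = 4) in WT, 150 ± 2.81 RPKM (SD, n = 4) in ΔTAM and a log2 fold change of -0.16 (adjusted p = 0.00117), while the other 3 were not called. With voom, *Eef1b2*, which encodes a subunit of the exchange factor of EEF1A, was called higher (log2 fold change of 0.09, adjusted p = 0.024). Of 9 mitochondrial partners tested, 2 were called lower, the ribosome-recycling factor gene *Gfm2* and the initiation factor gene *Mtif2*, both at -0.17. Among 9 genes of tRNA maturation and export, *Trit1*, which modifies the anticodon loop (-0.25), and *Elac2*, which trims the 3′ end (-0.20), were lower, and *Xpot*, the nuclear export receptor of tRNA, was higher (0.09, adjusted p = 0.034). With voom, which tested all 10, *Trmu* (-0.58, adjusted p = 0.00591) and *Trnt1* (-0.16, adjusted p = 0.0444) were lower as well. Of the 4 editing and proofreading genes 2 were tested on RPKM, where 0 were called and 0 had an unadjusted p under 0.05. Voom tested all 4, with 0 called and 2 at an unadjusted p under 0.05, *Aarsd1* (log2 fold change of 0.58, adjusted p = 0.0795) and *Dtd1* (0.24, adjusted p = 0.0674).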

How the data were processed

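RNA-seq libraries were made with a stranded, polyA-selecting kit. Ribosomal RNA reads and adapters were removed and reads were mapped to mm10 with STAR, and the authors deposited RPKM for each library, computed from exon coverage by their own pipeline. The annotation release, whether counting used strand, and how reads with several mapping places were handled are not given in the sources used here. The RPKM table has 51288 entries, of which 386 that repeat a symbol were set aside. An entry was set aside when it lay off the main chromosomes and another of its symbol lay on one. It was also set aside when its values were proportional to those of the entry kept, or when either had no reads. Deposited RPKM times the distance from gene start to end came in whole multiples (within 0.02) of a step per library for 99.6% of values, and each step was taken as 1 read. Comparisons used limma 3.58.1 in R 4.3.3 (lmFit, eBayes with trend) on log2(RPKM + 0.1), with genes averaging 0.1 RPKM or more, all 8 libraries and no covariate, with Benjamini-Hochberg adjustment over all genes tested. This pseudocount reduces fold changes of low genes. Alternatives were the pseudocount (0.01 or 1), the filter (none, or 1 RPKM), median-ratio or quantile scaling, robust eBayes or eBayes without trend, a block for the replicate number, voom on recovered reads and each library left out. Values in every library are given for the genes called on log2(RPKM + 0.1) that are among the 10 largest cytosolic or 6 largest mitochondrial changes, which left 5 mitochondrial genes, and for those called in the other direction, and genes of other lists are named for their 2 largest called changes in each direction, beside *Atf4*, *Ddit3*, *Chac1* and the targeted *Baz2a*; other genes named, such as *Farsb*, *Esrrb* and those not called, were chosen after their values were seen. The members, lists and rules were chosen with earlier results of these data known. Exon lengths and overlaps came from GENCODE vM21, promoter sequences from RefSeq (GRCm38.p6), of which 1 gene's is not reported here. Python 3.11.15 and matplotlib were used for tables and figures.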

Additional observations from a re-analysis of the deposited data

Results flagged for a closer look

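In groups of 4 libraries, a library was singled out when its gap to the nearest other library, divided by the range of the group, was above Dixon's 95% critical value. Chance gives this in about 5% of groups, or 4.4 of the 88 groups looked at, and 8 were found. Among cytosolic synthetases these were *Hars* in ΔTAM replicate 2 (0.830 RPKM, with 0.863 to 0.866 in the others), *Qars* in ΔTAM replicate 1 (5.51 RPKM, others 5.91 to 5.97), *Sars* in WT replicate 2 (3.34 RPKM, others 3.17 to 3.19) and *Vars* in WT replicate 4 (3.43 RPKM, others 3.58 to 3.59). Among mitochondrial synthetases, WT replicate 2 stood apart for *Fars2* (0.00587 RPKM, others 0.00624 to 0.00631) and for *Nars2* (0.0291 RPKM, others 0.0237 to 0.0245). *Chac1* stood apart in WT replicate 3 (2.48 RPKM, others 1.93 to 2.01) and *Trib3*, a pseudokinase induced by ATF4, in ΔTAM replicate 4 (1.17 RPKM, others 1.05 to 1.07).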

How the results depend on the processing

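The 12 ATF4-list synthetases were called lower in every setting in which they were tested, and *Farsa* was called higher in all of them. With genes of at least 1 RPKM only, 2148 genes were tested, of which 590 were higher and 399 lower. Of the cytosolic genes off the ATF4 list 5 were tested in this smaller fit, and 2 of them were lower. The cytosolic median was -0.33 and no mitochondrial synthetase was left to test. Voom on recovered reads gave 2773 higher and 2778 lower genes, 7 mitochondrial synthetases lower, a cytosolic median of -0.31 and a mitochondrial median of -0.13. The cytosolic median was -0.31 with a pseudocount of 0.01 or with quantile normalization and -0.18 with a pseudocount of 1, where the mitochondrial median was -0.024. The mitochondrial gene called higher, *Mars2*, was lost without a filter, with quantile normalization and with the replicate block (0 genes each), and 0 to 1 were called when 1 library was left out. Leaving out 1 library gave *Cars2* -0.061 to 0.0095 (above 0 without WT replicate 2) and *Sars2* -0.089 to 0.015 (above 0 without ΔTAM replicate 1), neither of which was called in any fit. Without a filter 25439 genes were tested, of which 1817 were lower and 1941 higher. In that fit 15 of the 20 cytosolic synthetases were lower, 3 of them off the ATF4 list, as *Qars* was lost (limma adjusted p = 0.0517). The cause of these shifts was not tested. Same-numbered libraries of the lines correlated at 0.024 to 0.062 in their deviations, and libraries with different numbers at -0.061 to 0.028. Not every library correlated best with its own number, and these values do not settle whether the numbers pair the libraries. With the number as a block 15 cytosolic synthetases were lower (without *Qars*, adjusted p = 0.0616), 1557 genes higher and 1239 lower over all genes. The low reads of *Wars2* and *Nars2* limit their precision.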
